A study of Mus musculus with 3 samples.

Results

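The Wnt ligands, their receptors, the R-spondins and the secreted Wnt antagonists were examined in the hippocampus of adult male mice. Members were chosen by gene name: Wnt, Fzd, Sfrp, Dkk or Rspo with a number, together with Frzb, Wif1, Axin2, Lrp5 and Lrp6. The rule used no measured value. It found 55 of the 39429 probes on the array, for 46 genes. Among them, 42 probes for 37 genes were kept, which means that their spots were well above background in one dye on all 3 arrays. Over the whole array, 27629 probes were kept.

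The mice were sons of older mothers, aged 15 to 18 months at breeding, or of young mothers, aged 3 months, the control group. All were sired by males of 3 months, and the sons were killed at postnatal day 120. The labels give no strain. Each RNA sample was a pool of hippocampal RNA from 3 males of a group, with 3 pools per group, and whether pools shared litters is not stated. Each of 3 two-colour Agilent arrays carried an older-mother pool in Cy3 and a young-mother pool in Cy5. Because the dyes were never swapped, dye and group cannot be told apart. Values are log2 ratios of older over young mothers, so a negative value is a lower signal in sons of older mothers.

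Wnt proteins are secreted lipid-modified ligands that bind Frizzled receptors. With the co-receptors Lrp5 or Lrp6, binding stabilises beta-catenin, which enters the nucleus and switches on target genes such as Axin2; other branches act on cell polarity and calcium. R-spondins strengthen the signal by protecting Frizzled receptors from removal, while Sfrp proteins, Frzb and Wif1 bind ligands and Dkk1 blocks the co-receptors. In the hippocampus the pathway is known for its part in development, in the birth of granule neurons and at synapses.

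Of the 37 measured genes, 3 rose, 5 fell and 29 did not pass the test, limma with Benjamini-Hochberg adjustment over all kept probes and a threshold of 0.05. The background over all 16008 genes measured was 7.15% up and 12.4% down, or 19.6% in either direction, against 21.6% of the members. The share called was thus near that of all genes. At an unadjusted p under 0.05, 7 members were higher and 14 lower (18.9% and 37.8%), beside 14.7% and 24.8% of all genes. The members' median log2 ratio was -0.06, beside -0.03 for all genes, and 25 of the 37 lay below 0, or 67.6% beside 57.9% of all genes. Fzd2, Wnt8b and Wnt10a rose, and Sfrp5, Fzd10, Fzd4, Dkk3 and Rspo3 fell. These 8 genes had the same sign on all 3 arrays, as did 60.7% of all genes measured. In 7 of the 8 the pool intensities of the groups did not overlap, as was the case for 42.3% of all probes above background in both dyes.

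**Figure D1:**
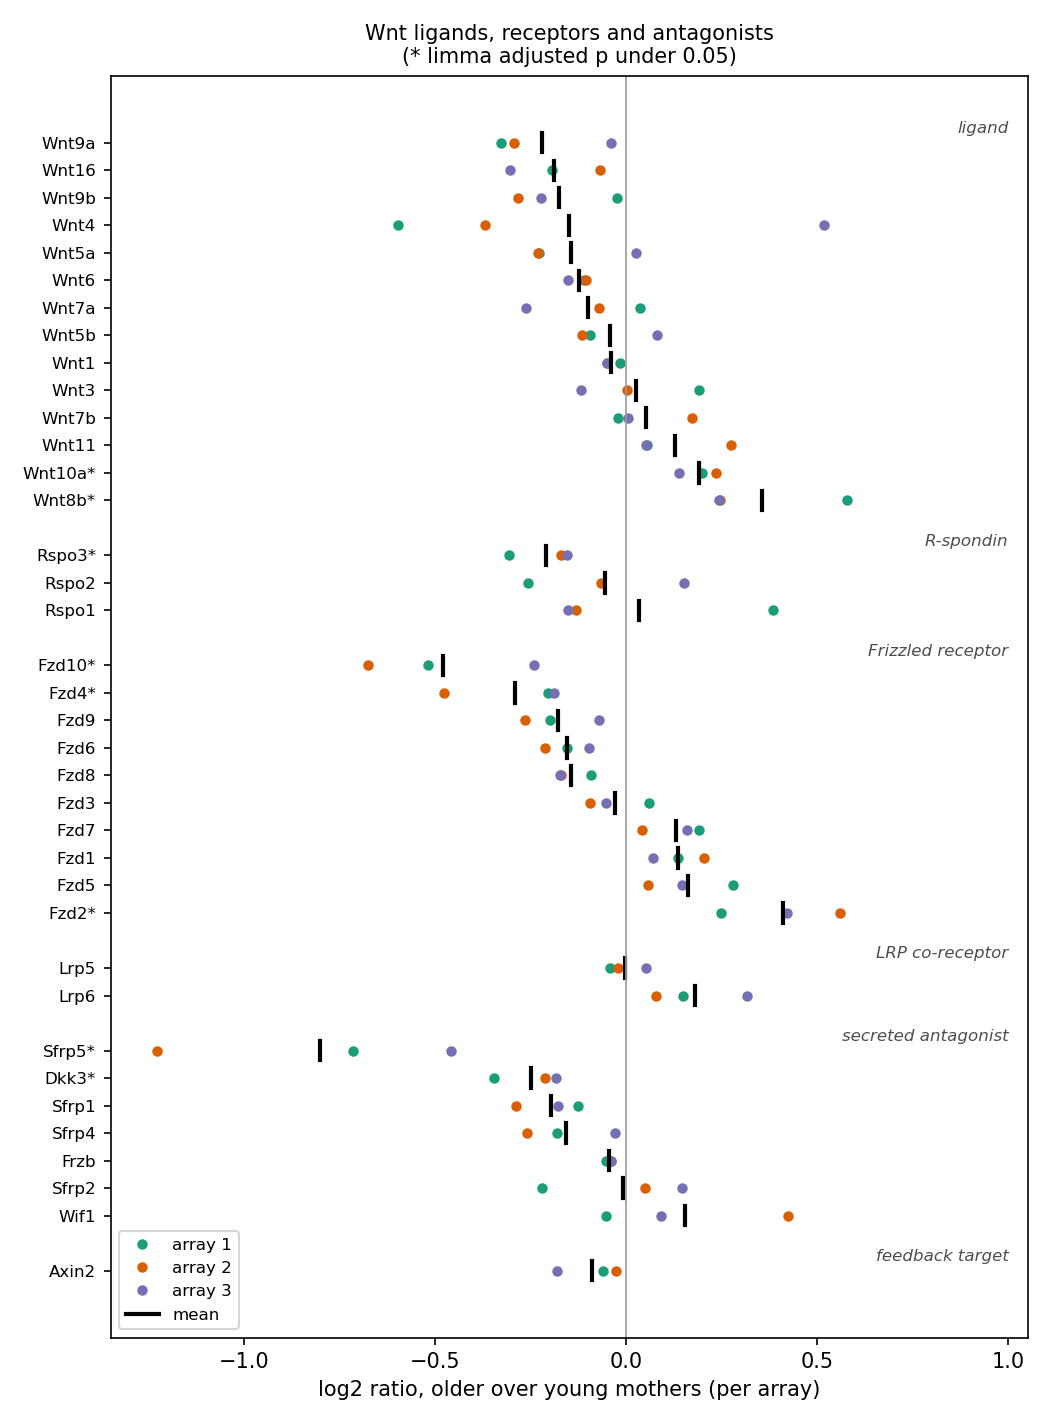
Log2 ratio of older over young mothers (horizontal axis) for each of the 37 measured genes (rows, by role); dots are the 3 arrays, bars the means, and a star marks an adjusted p under 0.05. Sfrp5 lies farthest to the left at -0.80 and Fzd2 farthest to the right at 0.41, and most other means lie near 0.

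**Figure D2:**
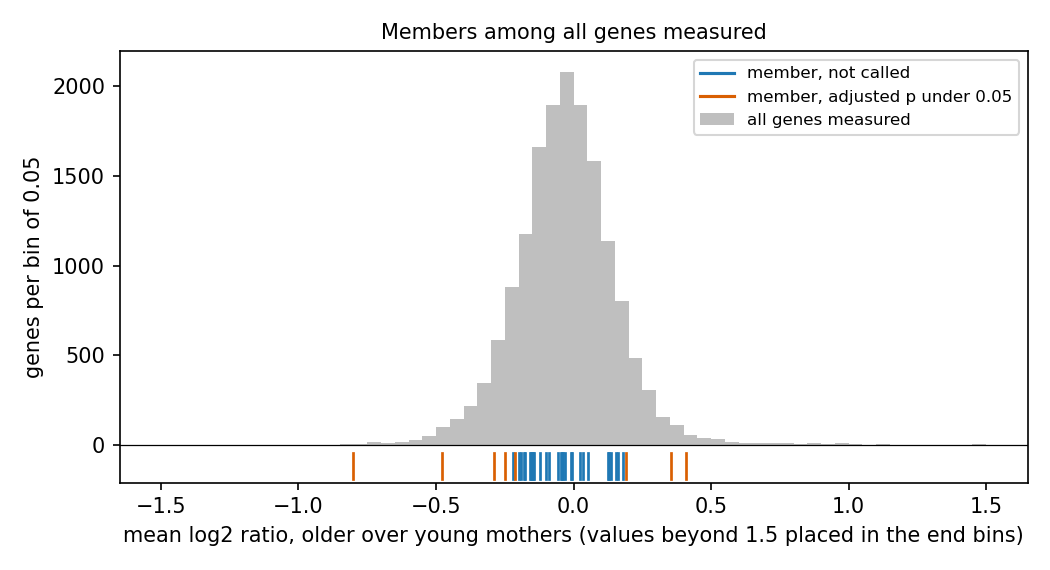
Histogram of the mean log2 ratio of all 16008 genes measured, in bins of 0.05, with the 37 members as ticks below it. The members spread over the range of most genes around a median of -0.06, with Sfrp5 at -0.80 in the lower tail.

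These calls rest on all 3 arrays together. Without replicate 1 only Fzd2 still passed (limma adjusted p = 0.0320), and without replicate 2 only Sfrp5 (0.0276). Of all genes, 12.9% passed without replicate 1 and 2.84% without replicate 2, beside 2.70% of the members in each fit. Without replicate 3 none of the 8 passed, with adjusted p between 0.0515 and 0.0915; 4 members were then higher and 12 lower at an unadjusted p under 0.05. Over all probes, the calls fell from 2189 up (7.92%) and 2946 down (10.7%), together 18.6%, to 29 up and 0 down without replicate 3.

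The calls also depended on the signals used. With Agilent's processed signals only Fzd10 kept its call (limma adjusted p = 0.0362), and the other 7 had adjusted p between 0.0536 and 0.111. Fzd5, not among the 8, passed there at 0.0344 with a mean of 0.57, and was called under 3 of 15 alternative settings in all. With the deposited log2 ratios 6 of the 8 were called, and Fzd4 (0.0595) and Wnt8b (0.0582) were not. With a smaller offset of 16, Fzd10, Fzd2 and Sfrp5 kept theirs. Fzd4 and Rspo3 lost theirs under a variance trend with robust settings, and Rspo3 and Wnt10a with no filter on dim probes. The 8 genes kept their direction under each of these settings.

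The ligands were the largest class, with 19 genes on the array and 14 measured. Wnt8b and Wnt10a rose and 0 ligands fell by limma, or 14.3% called beside 19.6% of all genes. At an unadjusted p under 0.05, 2 were higher and 4 lower (14.3% and 28.6%), beside 14.7% and 24.8% of all genes. The ligand means ran from -0.22 for Wnt9a, adjusted p = 0.0779, to 0.35 for Wnt8b.

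Wnt8b is a ligand known from the cortical hem, the signalling centre beside the embryonic hippocampus. Its kept probe read 138, 114 and 119 intensity units in the older-mother pools of arrays 1, 2 and 3. The young-mother pools read 92.6, 95.9 and 101 units. All 3 older-mother pools lay above all 3 young-mother pools, with the highest on array 1. The log2 ratios were 0.58, 0.25 and 0.24, with a mean of 0.35 ± 0.19 (SD, n = 3 arrays) and a limma adjusted p of 0.0389. The kept Wnt8b probe lies at chr19:44588615-44588674 on the plus strand in mm9, the build named in the array's design. A second Wnt8b probe, nearer the start of the transcript, was not above background on any array and was not tested. Its ratios were -0.11, -0.33 and -0.23, opposite in sign to those of the kept probe. Its older-mother pools read 66.1, 61.3 and 70.4 units and its young-mother pools 71.3, 77.2 and 82.7. At background level these ratios cannot settle the direction of Wnt8b. The kept probe was itself dim, and the call rests on it alone. The central 30 bases of the kept probe are shown for that reason:

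Wnt8b: aacacacaagcatccttcagttcacggctt

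Wnt10a, a ligand of the beta-catenin branch known from skin, teeth and hair, read 608, 596 and 563 units in the older-mother pools. The young-mother pools read 530, 507 and 512 units, all below the older-mother pools. The mean log2 ratio of Wnt10a was 0.19 ± 0.05 (SD, n = 3; limma adjusted p = 0.0441), and under median centring, where the median of all genes was -0.43, it was -0.25, or 0.18 higher than that median. Wnt6 is the neighbouring gene of Wnt10a in GRCm38.p6. The older-mother signal of Wnt6 was not well above background on any of the arrays. Its mean ratio was -0.12 (adjusted p = 0.0981), and 0.265 under median centring, so the neighbours did not move as a pair past the threshold. Wnt9b and Wnt3, the other neighbouring pair with both genes measured, had means of -0.18 and 0.02 and adjusted p of 0.102 and 0.820.

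Wnt4, a ligand that acts in several organs, was measured by a pair of probes that differed. The brighter one, which starts at base 3748 of the transcript, gave -0.60, -0.37 and 0.52 on arrays 1, 2 and 3. Its older-mother pools read 952, 974 and 1215 units and its young-mother pools 1441, 1258 and 849, so the order of the groups turned on array 3. The mean was -0.15 ± 0.59 (SD, n = 3; limma adjusted p = 0.631), the widest spread among the members.

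The other Wnt4 probe, which starts at base 605, gave -0.53, -0.36 and -0.19. Its older-mother pools read 143, 152 and 156 units and its young-mother pools 206, 196 and 178, with no overlap. The mean was -0.36 ± 0.17 (SD, n = 3; limma adjusted p = 0.0317). That call was lost without replicate 1, 2 or 3, at adjusted p of 0.0612, 0.0993 and 0.0531. The probe from base 605 spans an intron, at chr4:136851690-136852258 on the plus strand in mm9, and the other lies at chr4:136855342-136855401. The sequences are shown because readouts of 1 gene went apart, the first whole and the second by its central 30 bases:

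Wnt4 from base 605: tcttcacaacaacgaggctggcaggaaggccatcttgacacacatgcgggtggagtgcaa

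Wnt4 from base 3748: cattgtgacatccccacggcatagtctgag

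**Figure D3:**
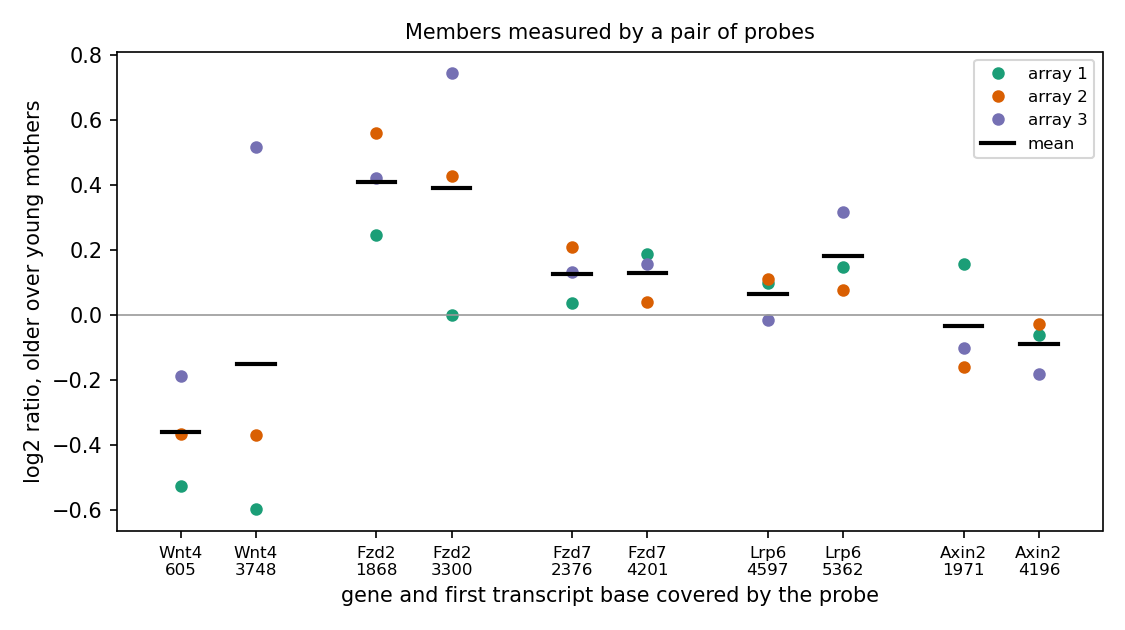
Log2 ratio of older over young mothers (vertical axis) for the 5 genes with a pair of kept probes, labelled by the first transcript base each covers; dots are arrays and bars means. The Wnt4 probe at 3748 spreads from -0.60 to 0.52, while the probe at 605 stays below 0; the Fzd7 probes have the same mean of 0.13.

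Wnt7a and Wnt7b, ligands that guide brain blood vessels and synapses, gave small ratios. Wnt7a gave ratios of 0.03, -0.07 and -0.26, averaging -0.10 ± 0.15 (SD, n = 3; limma adjusted p = 0.322). Wnt7b gave -0.02, 0.17 and 0.0044, averaging 0.05 ± 0.10 (adjusted p = 0.535). Both changed sign between arrays.

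Wnt5a, a ligand of the polarity and calcium branch, gave -0.23, -0.23 and 0.02, a mean of -0.15 ± 0.15 (SD, n = 3; limma adjusted p = 0.170). Array 3 stood apart from the other arrays for this gene. Its relative Wnt5b had a mean of -0.04 (adjusted p = 0.599). The remaining measured ligands, Wnt1, Wnt3, Wnt9a, Wnt9b, Wnt11 and Wnt16, had means between -0.22 and 0.13 and did not pass the test. Wnt2, Wnt2b, Wnt3a, Wnt8a and Wnt10b were not measured, so nothing can be said of their direction.

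Of the R-spondins, 3 of 4 were measured and 1, Rspo3, fell, beside 12.4% of all genes. Rspo3 read 438, 435 and 463 units in the older-mother pools and 542, 489 and 516 in the young-mother pools, with no overlap. The ratios were -0.31, -0.17 and -0.16, a mean of -0.21 ± 0.08 (SD, n = 3; limma adjusted p = 0.0449). Rspo1 and Rspo2 changed sign between arrays: Rspo1 had a mean of 0.03 ± 0.30 and Rspo2 of -0.06 ± 0.20, at adjusted p of 0.852 and 0.641. Rspo4 was not measured.

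All 10 Frizzled genes were measured, and 1 rose, 2 fell and 7 did not pass the test, or 30% called beside 19.6% of all genes. At an unadjusted p under 0.05, 4 were higher and 5 lower, beside 14.7% and 24.8% of all genes, and 9 of the 10 had the same sign on all 3 arrays, beside 60.7%. The receptors thus lay on both sides of 0, from -0.48 for Fzd10 to 0.41 for Fzd2.

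Fzd2 gave the highest ratio of all members. Its older-mother pools read 836, 1103 and 1034 units and its young-mother pools 704, 749 and 772. All older-mother pools lay above the young-mother pools, with the smallest step on array 1. The ratios were 0.25, 0.56 and 0.42, a mean of 0.41 ± 0.16 (SD, n = 3; limma adjusted p = 0.0233). Under median centring the mean was -0.10, or 0.33 higher than the all-gene median under that setting.

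A second, dimmer Fzd2 probe gave a ratio close to 0 on array 1 and 0.43 and 0.74 on the others, a mean of 0.39 ± 0.37 (SD, n = 3), and did not pass the test. It was above background in Cy5 on 2 of 3 arrays, and its groups overlapped on array 1. Fzd7, a close relative of Fzd2, was measured by a pair of probes, each with a mean of 0.13, at adjusted p of 0.122 and 0.138. Because related receptors can share sequence, the bright Fzd2 probe and the coding Fzd7 probe are shown whole, with their longest shared run of 14 bases in capitals:

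Fzd2: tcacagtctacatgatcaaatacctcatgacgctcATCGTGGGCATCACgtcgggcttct

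Fzd7: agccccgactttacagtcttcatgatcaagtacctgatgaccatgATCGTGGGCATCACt

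The probes lie at chr11:102467613-102467672 and chr1:59541367-59541426, both on the plus strand in mm9. Over 50 aligned bases, 42 were identical, which is 84%. Whether RNA of one receptor bound the other's probe was not tested. The dimmer Fzd2 probe lies farther along the transcript, at chr11:102469045-102469104, and its central 30 bases are shown as a separate readout of that gene:

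Fzd2 from base 3300: cataagatattgataagaatgtttctaaca

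Fzd10 read 234, 137 and 131 units in the older-mother pools and 335, 219 and 155 in the young-mother pools. The older-mother pool of array 1 was higher than the young-mother pools of arrays 2 and 3, so the groups overlapped, but on each array the older-mother pool was the lower one. The ratios were -0.52, -0.68 and -0.24, a mean of -0.48 ± 0.22 (SD, n = 3; limma adjusted p = 0.0268). With the pools taken as separate samples and no array block, the adjusted p of Fzd10 was 0.289. Its probe lies at chr5:129109798-129109857 on the plus strand in mm9, and its central 30 bases are shown because the gene gave the lowest receptor ratio:

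Fzd10: gttaaacaaatgatttccatgagtggtctt

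Fzd4, which besides Wnt proteins binds the vascular ligand norrin, read 406, 359 and 445 units in the older-mother pools. The young-mother pools read 468, 500 and 507 units, all above the older-mother pools. The ratios were -0.21, -0.48 and -0.19, a mean of -0.29 ± 0.16 (SD, n = 3; limma adjusted p = 0.0455). Ndp, the gene for norrin, also fell, by 0.37 on the log2 scale (adjusted p = 0.0185).

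Fzd9, a receptor expressed by hippocampal neurons and their precursors, gave -0.20, -0.26 and -0.07, a mean of -0.18 ± 0.10 (SD, n = 3; limma adjusted p = 0.0722). Fzd1 gave 0.14, 0.20 and 0.07, a mean of 0.14 ± 0.07 (adjusted p = 0.102), and under median centring its mean was -0.30, or 0.13 higher than the all-gene median. Both missed the threshold, although their pools did not overlap. Fzd3, Fzd5, Fzd6 and Fzd8 had means of -0.03, 0.16, -0.16 and -0.15, at adjusted p of 0.688, 0.104, 0.0706 and 0.0756.

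**Figure D4:**
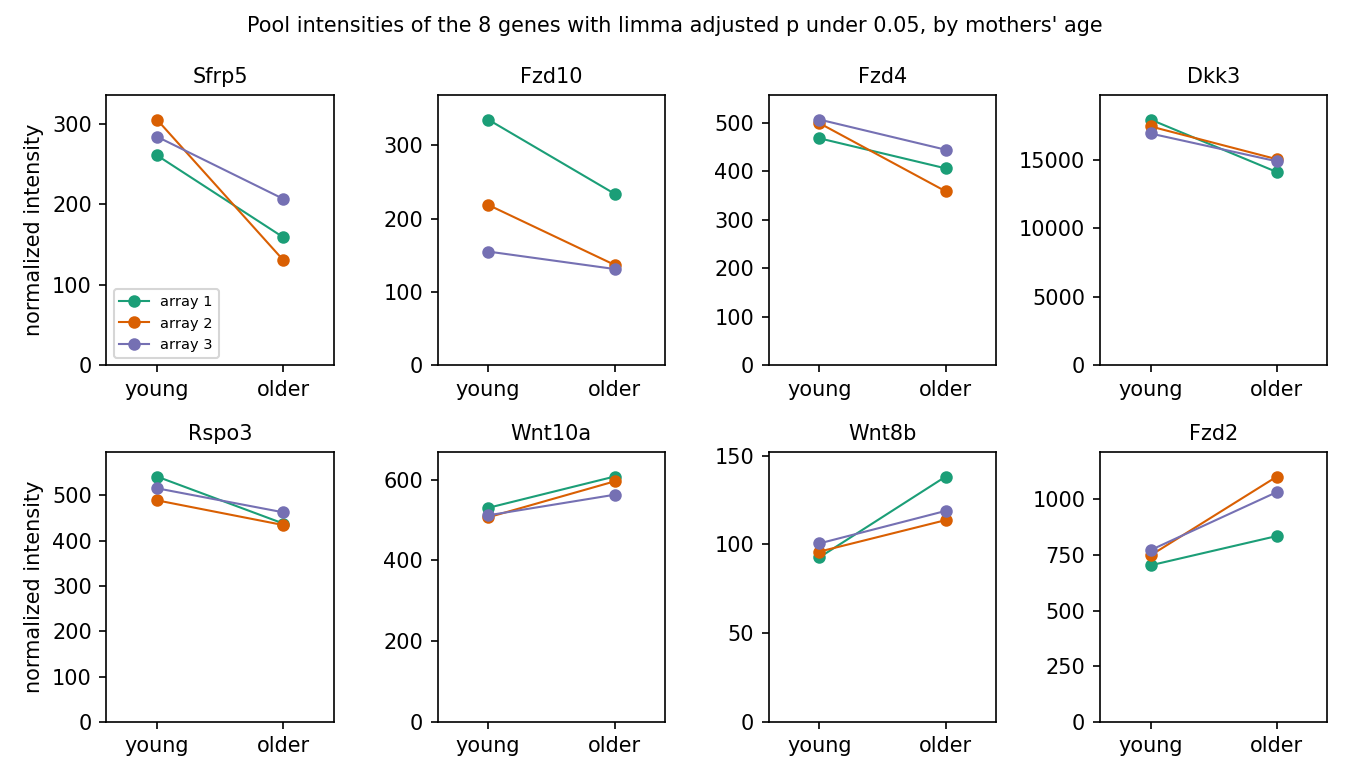
Normalized intensity (vertical axis, from 0) of the young-mother and older-mother pools for the 8 genes past the threshold; each line joins the pools of an array. The lines run down for Sfrp5, Fzd10, Fzd4, Dkk3 and Rspo3 and up for Wnt10a, Wnt8b and Fzd2, and only in Fzd10 do the groups overlap.

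Neither co-receptor passed the test. Lrp5 gave -0.04, -0.02 and 0.05, with a mean of -0.0048 ± 0.05 (SD, n = 3; limma adjusted p = 0.947) and a 95% interval from -0.12 to 0.11. Lrp6 gave 0.15, 0.08 and 0.32 with its brighter probe, a mean of 0.18 ± 0.12 (adjusted p = 0.0900), and under median centring a mean of -0.35, or 0.08 higher than the all-gene median. The other Lrp6 probe gave a mean of 0.07 (adjusted p = 0.361).

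Among the secreted antagonists, 7 of 10 were measured, 0 rose and 2 fell by limma, and at an unadjusted p under 0.05, 0 were higher and 4 lower. Of all genes, 12.4% fell, and 24.8% were lower at that unadjusted p. The antagonists' median log2 ratio was -0.16. Of the 7 means, 6 lay below 0, beside 57.9% of all genes.

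Sfrp5, a secreted decoy that resembles the ligand-binding part of a Frizzled receptor, had the lowest ratio of all members. Its older-mother pools read 159, 130 and 207 units and its young-mother pools 261, 305 and 284. The highest older-mother pool lay below the lowest young-mother pool. The ratios were -0.72, -1.23 and -0.46, a mean of -0.80 ± 0.39 (SD, n = 3; limma adjusted p = 0.0259), with a 95% interval from -1.16 to -0.44. Its probe lies at chr19:42272509-42272568 on the minus strand in mm9, and its central 30 bases are shown because it carries the lowest ratio:

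Sfrp5: gtggggccgctgattctagacaacagattt

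Dkk3, a member of the Dickkopf family whose effect on Wnt signalling is less settled than that of Dkk1, read 14111, 15050 and 14898 units in the older-mother pools. The young-mother pools read 17956, 17454 and 16936 units, all above the older-mother pools. The ratios were -0.35, -0.21 and -0.18, a mean of -0.25 ± 0.09 (SD, n = 3; limma adjusted p = 0.0334). The Dkk3 probe lies at chr7:119259556-119259615 on the minus strand in mm9, and its central 30 bases are shown because it carries the antagonist call with the smaller spread:

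Dkk3: ctgaagataccacagtaaagagatgtaaac

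Sfrp1 gave -0.13, -0.29 and -0.18, a mean of -0.20 ± 0.08 (SD, n = 3), and missed the threshold at a limma adjusted p of 0.0518. Frzb gave -0.05, -0.04 and -0.04, a mean of -0.05 ± 0.0078 (adjusted p = 0.465). Wif1, which binds ligands, gave -0.05, 0.42 and 0.09, a mean of 0.15 ± 0.24 (adjusted p = 0.286), and was above background in Cy3 on 2 of 3 arrays. Sfrp2 and Sfrp4 had means of -0.0092 and -0.16, at adjusted p of 0.941 and 0.112. Dkk1, Dkk2 and Dkk4 were not measured. In all, 9 member genes were not measured, and 7 of these were not above background in either dye on any array.

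Axin2, a scaffold of the beta-catenin destruction complex that the pathway itself induces, is often read as a gauge of beta-catenin signalling. Its brighter probe gave -0.06, -0.03 and -0.18, a mean of -0.09 ± 0.08 (SD, n = 3; limma adjusted p = 0.242), with a 95% interval from -0.22 to 0.04. Its other probe, above background in Cy3 on 1 of 3 arrays, gave 0.16, -0.16 and -0.10, a mean of -0.03 ± 0.17 (adjusted p = 0.754). A change of Axin2 was not detected with either probe.

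Of 108 other measured genes of the pathway, 12 rose and 12 fell, or 22.2%, again near the 19.6% of all genes. Those that fell include Musk, Sp5 and Tcf7, which were too dim in Cy3 and were kept for their Cy5 signal only. In the list for Wnt secretion and release, 1 of 10 genes rose and 0 fell, or 10% beside 19.6% of all genes. The gene that rose was Adgra2 (0.23, limma adjusted p = 0.0455), a surface coactivator rather than a secretion gene. Of the 10, 2 were higher and 2 lower at an unadjusted p under 0.05. Under median centring Adgra2 was at -0.10, or 0.33 higher than the all-gene median of -0.43.

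Of 17 surface modulators and co-receptors, 3 rose and 3 fell, or 17.6% in each direction beside 7.15% up and 12.4% down of all genes. Musk, among those that fell, was too dim in Cy3 and was kept for its Cy5 signal only. Znrf3, the ubiquitin ligase that removes Frizzled receptors, rose by 0.47 (limma adjusted p = 0.0167). Ryk, a Wnt receptor outside the Frizzled family, rose by 0.29 (0.0263), and was at -0.18 under median centring, 0.25 higher than the all-gene median. The secreted antagonist Sostdc1 gave -0.91, -2.13 and -0.67, a mean of -1.24 ± 0.78 (SD, n = 3; adjusted p = 0.0389).

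Of 26 genes of the destruction complex and Dishevelled, 1 rose and 3 fell, or 15.4% beside 19.6% of all genes. Apc, its scaffold, rose by 0.25 (limma adjusted p = 0.0247) and was at -0.06 under median centring, 0.36 higher than the all-gene median. Btrc, which marks beta-catenin for breakdown, fell by 0.31, the inhibitor Nkd1 by 0.27 and the kinase Csnk1d by 0.24. Of 19 nuclear effectors, 4 rose and 2 fell, or 31.6% beside the same 19.6%. The corepressors Tle1 and Tle3 rose by 0.40 and 0.28, and were at -0.24 and -0.28 under median centring, 0.19 and 0.14 higher than the all-gene median. The coactivator Bcl9l fell by 0.28, and was at -0.32 under median centring, 0.11 higher than the all-gene median. The transcription factor Tcf7, whose older-mother signal was not above background, had a mean of -0.28 (limma adjusted p = 0.0260), and of 0.27 under median centring.

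Of 22 genes of the planar polarity and calcium branch, 0 rose by limma, with 2 higher at an unadjusted p under 0.05, and 2 fell: Rhoa by 0.30 and Celsr1 by 0.33. That is 9.09% called, beside 19.6% of all genes. Of 22 genes known to be induced by Wnt and beta-catenin, 4 rose and 4 fell, or 18.2% in each direction. Of all genes, 7.15% rose and 12.4% fell under the same filter. Among the genes that fell, Sp5 and Tcf7 were too dim in Cy3 and were kept for their Cy5 signal only. With both dyes required, neither was tested, and under median centring they were at 0.29 and 0.27. Tcf7, Nkd1 and Znrf3 were also counted in the lists above. Jun, which many other signals also induce, rose by 0.50 (limma adjusted p = 0.0147), and was at -0.15 under median centring, 0.27 higher than the all-gene median. Zcchc12 fell by 0.34 (0.0163). Sp5, likewise too dim in Cy3, had a mean of -0.37 (0.0233), at least 1.26-fold lower under the main settings only. Without background correction Sp5 was at -0.17 (limma adjusted p = 0.0754), and under median centring at 0.29. Of the named pathway genes other than Musk, none passed without replicate 3, and Jun, Znrf3 and Sostdc1 passed without replicate 2. Without replicate 1, Adgra2, Apc, Bcl9l, Nkd1 and Sostdc1 did not pass.

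**Figure D5:**
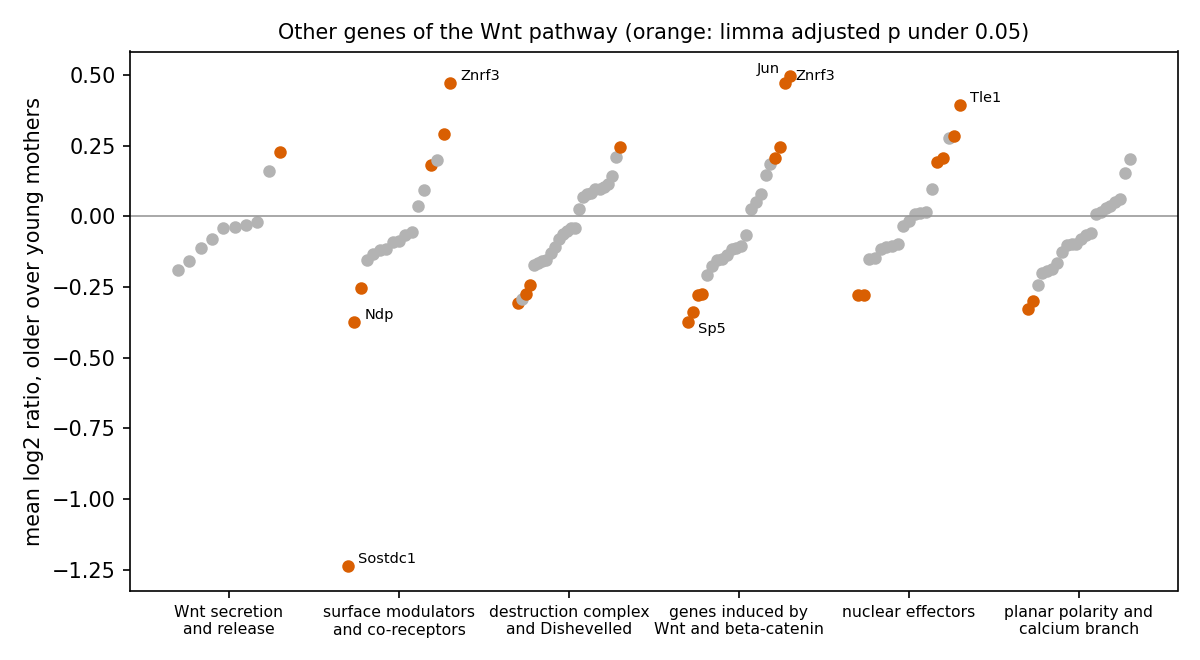
Mean log2 ratio of older over young mothers (vertical axis) for the other pathway genes in 6 lists; orange dots have a limma adjusted p under 0.05, and a gene on more than 1 list appears in each. Sostdc1 stands apart at -1.24, and each of the other named genes lies between -0.37 and 0.50.

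Markers of tissue next to the hippocampus moved with some of these values. Of all genes, 19.6% were called, and 14.7% were higher and 24.8% lower at an unadjusted p under 0.05. Of 19 choroid plexus markers, all measured and none at 0, 0 rose and 5 fell by limma (26.3%). At that unadjusted p, 0 of these markers were higher and 17 lower (89.5%). Their median ratios on arrays 1, 2 and 3 were -0.67, -1.79 and -0.33. The arrays ranked likewise for Sfrp5, Fzd10, Fzd4 and Sostdc1, which is itself on that marker list. The same order held for Fzd6, Fzd9, Lrp6, Sfrp4, Wnt5a and Wnt5b, none of them called. It also held for the leptomeningeal medians of -0.35, -0.56 and -0.18. The share of all genes with that order was not counted. The summed intensity of the choroid plexus markers was 20555 to 110886 units in the older-mother pools and 122102 to 166674 in the young-mother pools. Of 13 leptomeningeal markers, 0 rose and 7 fell (53.8%), and 0 were higher and 11 lower at an unadjusted p under 0.05. Their summed intensities were 8182 to 12832.5 units in the older-mother pools and 11059 to 13480 in the young-mother pools. Of 10 markers of pericytes and smooth muscle, 0 rose and 5 fell by limma (50%), with 2 higher and 5 lower at an unadjusted p under 0.05 and a median of -0.20. Their summed intensity was 8025 to 9822 units in the older-mother pools and 9836 to 11811 in the young-mother pools. Of 15 endothelial markers, 3 rose and 4 fell (46.7%), with a median of -0.01 and summed intensities of 27893 to 33655 and 28135 to 30537 units. All of these markers were measured, and their part in the members' ratios, those of Fzd4 and of Ndp included, was not tested. Without replicate 2, the array with the lowest choroid plexus values, the means of Sfrp5, Fzd10 and Fzd4 were -0.59, -0.38 and -0.20. With it they were -0.80, -0.48 and -0.29. Array 2 held the lowest ratio of each of these genes, so that shift was fixed in advance and tells nothing of its source. Dkk3 and Rspo3, which also fell, were at -0.27 and -0.23 without replicate 2, beside -0.25 and -0.21 with it. On array 2 Dkk3 and Rspo3 were at -0.21 and -0.17, above their means, so this shift too was fixed in advance. The contrast with Sfrp5, Fzd10 and Fzd4 thus tells nothing of a source either. Of all genes, 2.84% passed the test without replicate 2. In bulk tissue, fewer cells of a type and less RNA per cell cannot be told apart. Of 15 markers of hippocampal neurons, 2 rose and 2 fell (26.7%), with a median of -0.02, and all were measured.

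Each array held 44397 spots, with 0 saturated. The median signal over background was 54.8 to 59.3 units in Cy3 and 144 to 155 in Cy5, so the older-mother channel was the dimmer one throughout. Precision is limited by there being only 3 arrays.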

How the data were processed

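Total RNA of 3 older-mother and 3 young-mother hippocampus pools was hybridised to 3 two-colour arrays, all on 1 slide. Per the file headers, Agilent Feature Extraction 10.10.1.1 gave mean signals and background medians as raw intensity, and processed signals as intensity after background and dye correction. Per the file headers, other columns hold flags (0 or 1) for background, saturation and outliers. In the deposited table the values are log2 ratios, Cy3 over Cy5; normexp and loess on the median signals gave the same values, within 5.0e-10. How the authors made it is not given in the sources used here.

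Here, mean signals were corrected by normexp with offset 50 in limma 3.58.1 (R 4.3.3) and normalized by loess with span 0.3, with weight 0 for control and outlying spots. Pool intensities were then scaled with Aquantile. The offset pulls ratios of dim probes towards 0. Log2 ratios were tested two-sided with lmFit and eBayes, on 2 residual and 3.42 prior degrees of freedom, and adjusted by Benjamini-Hochberg over 27629 probes. A gene was read by its brightest kept probe with an accession in RefSeq (GRCm38.p6), which held all 55 member probes. A bound ("at least", given for Sp5) sets the dim group, per array, at the lowest signal among probes above background, or at its own where that is higher. It is not given for Wnt6, Tcf7 and Musk, where it would equal the fitted fold. The bound holds for the main settings only and takes no account of the spread over arrays. With pools paired by array, each ratio is a pair, and the fit without that pairing is an alternative. Errors are SDs over arrays. The p-values test whether the mean of the paired array ratios differs from 0, against their spread over arrays. That spread mixes differences between pools and between arrays, and is moderated with the variance of other probes. A dye effect equal on all arrays is not part of it.

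Members and lists were chosen with earlier results of these data known. Array values are given for members past the threshold with 1 sign on all arrays and for a fixed set of well-known members. Other members are given by mean or range. Up to 4 called genes with the smallest p per other pathway list are named, and Musk is named for its dim older-mother signal. On simulated data of 27629 probes for this comparison, 40 of 100 probes changed by 0.5 (log2) and 83 of 100 changed by 1 were called, with 6 of 27429 unchanged probes. Noise there was independent between probes, few probes changed and no dye effect of single probes was added. The calls among unchanged probes thus give no rate of false calls for the real arrays. The alternatives changed the signals used (Agilent's processed ones or the deposited table), the background correction (none, or offset 16), the dye balance (median centring), the scaling between arrays, the filters, the thresholds, the variance model, the array weights, the pairing (separate channels) and the way probes of a gene are combined, and left out each replicate in turn. The coordinates are those of the array files, in mm9 per the file headers.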

Additional observations from a re-analysis of the deposited data

How the results depend on the processing

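Counts are given as up and down. With Agilent's processed signals they were 1169 and 1451 for all probes, 1 and 1 for member probes, 1 and 1 for member genes and 5 and 4 for other pathway genes, with a member median of -0.10. Without background correction 10 member probes, 9 member genes and 19 pathway genes were down. An offset of 16 gave 1 and 3 member probes and 1 and 2 member genes. Median centring gave 5995 and 17004 probes, 10 and 22 member probes, 7 and 21 member genes, 81 pathway genes down and a member median of -0.25, with the median of all genes at -0.43. A variance trend with robust settings left 3 member genes down. Array weights gave 5745 and 7542 probes, 8 and 15 member probes, 6 and 14 member genes, 22 and 44 pathway genes and a member median of -0.082. At an adjusted p under 0.01 limma called 1 probe up and 0 down, with 0 members and 0 pathway genes, beside 7 members up and 14 down at an unadjusted p under 0.05. At a threshold of 0.10 it called 3862 and 5209 probes, and down were 13 member probes, 12 member genes and 22 pathway genes. Leaving out each replicate gave 29 to 1458 probes up and 0 to 1905 down, 0 to 2 member probes up and 0 to 1 down, 0 to 1 member genes in each direction, 0 to 8 pathway genes in each direction and a member median from -0.0867 to -0.0474. Fewer arrays account for part of that by construction; for the other settings the cause was not tested. Scaling between arrays kept all 27 named calls. The share of member genes called with processed signals was 5.41%, beside 8.91% of all genes. Without background correction these shares were 35.1% and 26.9%, and with an offset of 16 they were 8.11% and 13.9%. Median centring gave 75.7% of members and 86.1% of all genes, and array weights 54.1% and 49.3%. A variance trend with robust settings gave 16.2% and 17.8%, and a threshold of 0.10 gave 43.2% and 33.6%.

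Signs turned as follows. Median centring moved the whole scale, and relative to the all-gene median Fzd1, Fzd2, Lrp6, Rspo1, Wnt10a, Wnt7b, Adgra2, Ryk, Apc, Jun, Tle1 and Tle3 stayed above 0. Other genes turned on that relative scale, from below 0 to above it. Of those called, Bcl9l, Sp5 and Tcf7 were at 0.11, 0.72 and 0.69. Those not called included Axin2, Fzd3, Fzd6, Sfrp1 and Sfrp4, at 0.16, 0.30, 0.42, 0.41 and 0.18. The member median minus that of all genes was 0.18, beside -0.03 in the main fit. Before that subtraction, median centring gave 0.415 for the second Axin2 probe, -0.30 for Fzd1, -0.098 for Fzd2, 0.029 for Fzd8, -0.35 for Lrp6 and -0.21 for Rspo1. It gave -0.25 for Wnt10a, 0.18 for Wnt16, 0.265 for Wnt6, -0.21 for Wnt7b, 0.055 for Wnt9b and 0.165 for Sfrp2. Among pathway genes it gave -0.10 for Adgra2, -0.18 for Ryk, -0.063 for Apc, -0.155 for Jun, 0.29 for Sp5, -0.24 for Tle1, 0.265 for Tcf7 and -0.28 for Tle3. Processed signals gave 0.029 for Rspo2, 0.00066 for Sfrp2 and -0.40 for Wif1. Array weights gave -0.082 for Rspo1 and 0.033 for Sfrp2, and the deposited values gave Sfrp2 as 0.018. No background correction gave -0.052 for Rspo1, 0.038 for Sfrp2 and -0.053 for Wif1, and an offset of 16 gave 0.00051 for Lrp5. Leaving out each replicate gave -0.13 to 0.028 for the second Axin2 probe, -0.075 to 0.0022 for Fzd3, -0.033 to 0.014 for Lrp5, -0.143 to 0.126 for Rspo1, -0.162 to 0.042 for Rspo2, -0.059 to 0.096 for Wnt3, -0.484 to 0.074 for Wnt4, -0.0091 to 0.087 for Wnt7b and -0.087 to 0.097 for Sfrp2. Without the pairing of pools by array (no replicate block), 25 of the 27 named calls held; Fzd10 (limma adjusted p = 0.289) and Nkd1 (0.0583) did not. Dim spots limit Wnt6, Wif1 and the second Fzd2 and Axin2 probes, which were not above background on every array in both dyes.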
